A study of Mus musculus with 8 samples.

Results

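The genes described here encode 10 transcription factors of the basic leucine zipper (bZIP) class, namely the AP-1 subunits Fos, Fosb, Fosl1, Fosl2, Jun, Junb and Jund together with Atf3, Batf and Maff. They were chosen by name and were found in the deposited table of 52636 Ensembl genes through the symbols of GENCODE vM21. All 10 were in the table and all 10 passed the filter on low counts, among 13847 genes tested. The table holds RNA-seq counts of primary microglia from wild-type C57BL/6 mice (C57BL/6N pups in the methods), kept in medium with 10% fetal bovine serum and 10 ng/ml of the growth factor CSF-1. The 4 LPS libraries came from cells given 5 µg/ml lipopolysaccharide (LPS) for 24 h and the 4 vehicle libraries from cells given the solvent. According to the methods of the study, such cells were shaken off mixed glial cultures of neonatal brains, in which they grow on a layer of astrocytes. The labels call the libraries biological replicates without naming the animals or cultures behind them. The tests below thus set the difference between the groups against the spread between these libraries, whatever that spread comes from.

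AP-1 is a dimer that forms when the leucine zippers of 2 bZIP proteins pair. JUN proteins can pair with themselves or with FOS proteins, whereas FOS proteins need a partner such as JUN to bind DNA. LPS acts through the receptor TLR4, whose MAP kinase branch switches on Fos, Jun, Atf3 and other immediate early genes within minutes to hours, so an RNA taken a day later reads the late state of this system and not its first wave. ATF3 is a stress-induced factor best known in macrophages for restraining cytokine genes. BATF proteins pair with JUN proteins and can bind DNA together with IRF4 or IRF8. MAFF is a small MAF protein that lacks an activation domain and pairs with NFE2-type or BACH proteins.

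Total counts ranged from 20071921 to 30604447 per library. The summed level of 10 microglia markers was 10151 to 12778 CPM (counts scaled to the TMM-normalized library size) in vehicle libraries and 1982 to 2215 CPM after LPS, and 8 of the 10 fell. Lower expression per cell and fewer cells of a type cannot be told apart in such bulk RNA. The sums of 10 astrocyte markers were 20.6 to 47.7 CPM in vehicle and 41.4 to 124 CPM after LPS. Of 8 tested, only Gja1 was called higher (mean 0.873 and 48.6 CPM), while Gfap, Aqp4 and Aldh1l1 were called lower. For 10 endothelial markers the sums were 31.8 to 74.7 and 164 to 255 CPM. Of 4 tested, Flt1, Pecam1 and Cdh5 were called higher and Itm2a lower. Cldn5, Tek, Ly6c1 and Esam had no more than 3 counts in every library. The sums of 6 fibroblast markers were 0.497 to 4.31 and 5.30 to 21.4 CPM, with 2 tested and Dcn called higher. Those of 10 oligodendrocyte markers were 150 to 205 and 188 to 238 CPM. Of 4 tested, Cnp was called higher (mean 88.6 and 195 CPM) and Mbp lower (mean 84.0 and 15.3 CPM). Mobp, Ermn and Opalin had no more than 3 counts in every library. The sums of 10 markers of oligodendrocyte precursors (OPC) were 27.5 to 143 and 63.8 to 139 CPM. Of 7 tested, Vcan was called higher (mean 16.6 and 61.2 CPM) and Cspg4, Olig1 and Olig2 lower. The mitochondrial share was 0.400% to 0.518% in vehicle and 0.114% to 0.237% after LPS. The part of these differences in the results below was not tested.

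LPS replicate 3 stood apart from the other LPS libraries in a way that followed the GC content of the transcripts. In the 10% of genes with the highest GC content its median lay 0.74 below the mean of the other 3 LPS libraries on the log2 scale, and in the lowest 10% it lay 0.38 above. In the other LPS libraries the same medians were 0.22 to 0.33 at the highest and -0.15 to -0.07 at the lowest GC content. Each of these libraries was set against a mean that includes LPS replicate 3, which by itself shifts their medians the opposite way. These medians therefore do not show a separate trend of the other libraries. The trend of LPS replicate 3 matters for the members because the transcripts of Jund, with 67.1% GC, and Junb, with 62.6% GC, are richer in GC than 99.9% and 99.3% of the tested genes. Results that rest on this library are given with and without it.

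The promoters of several members carry letters that bZIP dimers are known to read, and 5 such windows are printed here because the encoded proteins belong to the class that binds such letters. Each window is the 250 bases before a RefSeq transcript start in GRCm38.p6, written 5′ to 3′ on the strand of the gene. The search covered both strands for the AP-1 site TGANTCA, the cyclic AMP response element TGACGTCA, its shorter form TGACGT, which is contained in the longer one, and the variant TGACATCA. Capitals mark the matches.

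Fos, chr12:85473640-85473889, plus strand: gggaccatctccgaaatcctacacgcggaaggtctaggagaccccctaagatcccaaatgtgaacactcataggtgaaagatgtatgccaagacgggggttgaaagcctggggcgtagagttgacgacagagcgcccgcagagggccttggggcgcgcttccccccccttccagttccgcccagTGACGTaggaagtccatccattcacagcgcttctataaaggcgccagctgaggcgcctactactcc

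Atf3, chr1:191183334-191183583, minus strand: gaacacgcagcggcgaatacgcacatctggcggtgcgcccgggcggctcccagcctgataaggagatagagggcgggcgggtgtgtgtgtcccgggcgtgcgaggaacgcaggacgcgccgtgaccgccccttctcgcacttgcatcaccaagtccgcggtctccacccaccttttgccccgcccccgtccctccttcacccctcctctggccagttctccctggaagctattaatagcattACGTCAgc

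Batf, chr12:85686470-85686719, plus strand: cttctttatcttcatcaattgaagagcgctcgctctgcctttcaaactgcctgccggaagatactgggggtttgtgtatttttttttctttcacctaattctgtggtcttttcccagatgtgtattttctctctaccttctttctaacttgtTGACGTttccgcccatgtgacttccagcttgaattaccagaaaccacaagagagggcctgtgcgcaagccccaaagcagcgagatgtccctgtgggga

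Jun, chr4:95052223-95052472, minus strand: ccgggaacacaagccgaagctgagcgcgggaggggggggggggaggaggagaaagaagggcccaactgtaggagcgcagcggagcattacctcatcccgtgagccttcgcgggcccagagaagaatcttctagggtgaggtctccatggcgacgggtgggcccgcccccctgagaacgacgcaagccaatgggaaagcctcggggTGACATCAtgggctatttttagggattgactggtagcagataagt

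Maff, chr15:79347270-79347519, plus strand: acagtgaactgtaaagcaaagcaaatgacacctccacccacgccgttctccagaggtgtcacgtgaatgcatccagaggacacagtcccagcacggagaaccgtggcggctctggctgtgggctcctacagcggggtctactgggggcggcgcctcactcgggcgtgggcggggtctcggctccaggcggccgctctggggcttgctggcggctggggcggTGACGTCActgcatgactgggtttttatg

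TGACGT lay 66 to 61 bases before the start of Fos, 98 to 93 bases before that of Batf and, on the opposite strand, 8 to 3 bases before that of Atf3. These are starts of RefSeq transcripts and can differ from the GENCODE gene limits given below. The Batf window ends at 85686719, past the GENCODE start at 85686669, and the Atf3 window lies within the limits of the gene. The full TGACGTCA lay 29 to 22 bases before the start shown for Maff. TGACATCA lay 45 to 38 bases before the start of Jun and, in another RefSeq window of Maff that is not shown, at the same distance. Of all 32851 RefSeq windows of this length, 6.75% held TGANTCA, 6.47% TGACGT, 2.93% TGACATCA and 1.55% TGACGTCA. TGANTCA was in none of the 11 windows of the 9 members that have one. The windows of Fosb, Fosl2, Junb and Jund held none of the 4 motifs. That of Jund lies apart from the gene, since it ends at 70697738 and the gene starts at 70698949 in GENCODE. The lack of motifs in it says nothing of the bases next to that start. RefSeq gave no window for Fosl1. A match describes the letters in the window and says nothing of binding in these cells.

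After 24 h of LPS the mRNA of 7 members was higher, that of Fos was lower, and those of Jun and Fosb did not pass the test. The comparison used the quasi-likelihood test of edgeR with p-values adjusted over all 13847 genes by the Benjamini-Hochberg method and a threshold of 0.05. By the same test 64.1% of all genes passed, 30.3% as higher and 33.8% as lower, so that passing the test was common in these data. The median log2 fold change of the members was 1.56, beside -0.11 for all tested genes. All 4 LPS libraries lay above all 4 vehicle libraries for Fosl1, Fosl2, Atf3, Batf and Maff, as they did for 28.7% of all genes. They lay below for Fos, as for 31.5% of all genes. The ranges overlapped for Fosb, Jun, Junb and Jund. Without LPS replicate 3 the counts were again 7 higher and 1 lower.

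**Figure D1:**
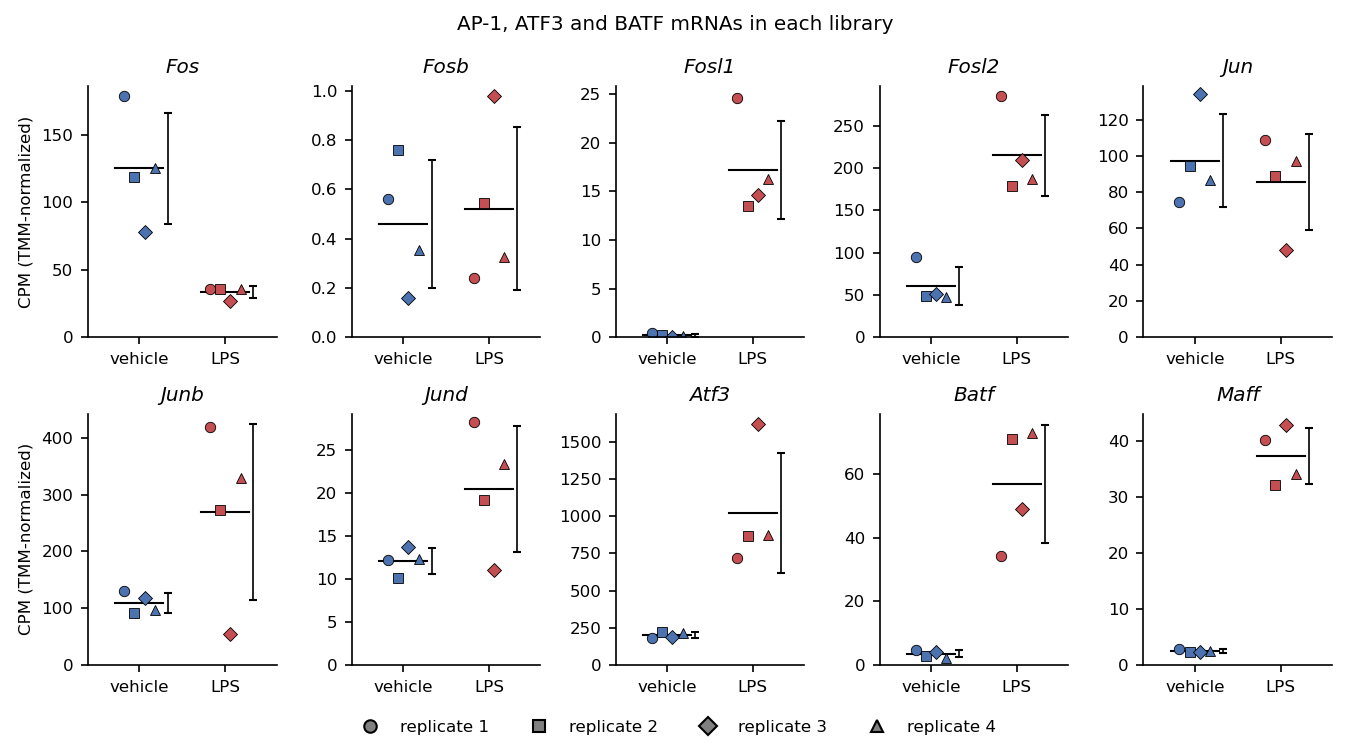
Level of each member in each of the 8 libraries, in TMM-normalized CPM on linear axes that start at 0. Colours are the groups, marker shapes the replicate numbers, horizontal lines the group means and bars the mean ± SD of 4 libraries. Fos sits at 78.1 to 178 CPM in vehicle and 26.9 to 35.6 CPM after LPS, and the diamond of LPS replicate 3 is far below the other LPS libraries for Junb and above them for Atf3.

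Within the FOS subfamily the leading gene changed from Fos to Fosl2. Fos (chr 12, 85473890 to 85477273, plus strand, GRCm38) encodes c-FOS, the subunit that gives AP-1 strong activating capacity. Its level was 178, 118, 78.1 and 125 CPM in vehicle replicates 1 to 4 and 35.6, 35.5, 26.9 and 35.4 CPM in LPS replicates 1 to 4. Every LPS library was below every vehicle library, and the vehicle libraries were the more spread, with 125 ± 41.2 CPM (SD, n = 4) against 33.4 ± 4.29 CPM. Fos fell by 1.91 ± 0.23 (SE) on the log2 scale, or 3.75-fold, with an edgeR adjusted p of 6.49e-05. The change was -1.81 ± 0.25 without LPS replicate 3, and Fos was called lower whichever of the 8 libraries was left out.

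Fosl2 (chr 5, 32135801 to 32157842, plus strand) encodes FRA-2, a FOS protein without the strong activation domain of c-FOS. Its level was 94.7, 49.1, 51.4 and 48.0 CPM in vehicle and 285, 179, 209 and 187 CPM after LPS. Replicate 1 was the highest of both groups, and the groups did not overlap. Fosl2 rose 3.54-fold, a log2 fold change of 1.82 ± 0.25, with an edgeR adjusted p of 0.000159.

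Fosl1 (chr 19, 5447547 to 5455946, plus strand) encodes FRA-1, the other FOS protein of this kind and itself often described as a target of AP-1. It was close to absent in vehicle, with 12, 7, 2 and 4 counts or 0.420, 0.242, 0.0634 and 0.142 CPM. After LPS it had 411, 247, 313 and 300 counts, or 24.6, 13.5, 14.6 and 16.2 CPM. The largest fitted log2 fold change among the members was that of Fosl1, with 6.29 ± 0.42 and an edgeR adjusted p of 1.71e-06, and its size rests on the 25 counts of the vehicle group. Of the exonic bases of Fosl1, 57.2% overlap Ccdc85b on the opposite strand, and the sources do not state whether the counting used strand. Ccdc85b itself had 22 to 57 counts in vehicle libraries and 0 to 12 after LPS.

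Fosb (chr 7, 19302696 to 19310051, minus strand), which encodes the remaining FOS protein and is best known from neurons, was near the detection limit in both groups. It had 16, 22, 5 and 10 counts in vehicle and 4, 10, 21 and 6 counts after LPS, or 0.159 to 0.761 CPM and 0.239 to 0.979 CPM. The log2 fold change of 0.21 ± 0.56 did not pass the test (edgeR adjusted p = 0.753).

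In the JUN subfamily Jun did not pass the test, while Junb and Jund were called higher with a call that depended on the library set. Jun (chr 4, 95049034 to 95052222, minus strand) encodes c-JUN, the partner through which most FOS proteins bind DNA. Its level was 74.7, 94.3, 134 and 86.6 CPM in vehicle and 109, 88.8, 47.9 and 97.1 CPM after LPS. The groups overlapped almost fully, and the highest vehicle and the lowest LPS library were both replicate 3. The log2 fold change was -0.19 ± 0.26 (edgeR adjusted p = 0.539), and it was 0.02 ± 0.19 without LPS replicate 3.

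Junb (chr 8, 84974484 to 84978718, minus strand) encodes JUNB, a JUN protein that activates more weakly than c-JUN and can oppose it. Its level was 130, 91.1, 118 and 96.9 CPM in vehicle and 419, 273, 54.3 and 329 CPM after LPS. In the LPS group 3 libraries lay above every vehicle library, and LPS replicate 3 lay below all of these. The log2 fold change was 1.30 ± 0.48 with an edgeR adjusted p of 0.0358. Without LPS replicate 3 it was 1.65 ± 0.18 with an edgeR adjusted p of 6.79e-05.

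When vehicle and LPS libraries were paired by replicate number, Junb was higher after LPS in 3 of 4 pairs, by 1.69, 1.58 and 1.76 on the log2 scale, and differed by -1.12 in pair 3. With this replicate block its change of 1.06 ± 0.47 no longer passed the test (edgeR adjusted p = 0.0804). The call was also lost with upper quartile normalization (1.18, edgeR adjusted p = 0.0606) and when any of the other 7 libraries was left out, with edgeR adjusted p-values of up to 0.0957. Removing the GC trend of each library within its group, an alternative chosen after the data were seen, gave 1.11 ± 0.31 (edgeR adjusted p = 0.00970), and 1.00 ± 0.29 with the block added (edgeR adjusted p = 0.0163). Removing the trend over all 8 libraries instead, likewise chosen after the data were seen, gave 1.82 ± 0.29 (edgeR adjusted p = 0.000371). Of the exonic bases of Junb, 7.52% overlap Prdx2 on the opposite strand. Prdx2 had 1562 to 2222 counts in vehicle libraries and 1438 to 1650 after LPS, and was called higher (0.34 ± 0.11, edgeR adjusted p = 0.0200).

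Jund (chr 8, 70698949 to 70700616, plus strand), an intronless gene for JUND, the JUN protein commonly described as constitutive, had a lower level per kb than Jun and Junb in every library. It had 12.1, 10.1, 13.7 and 12.2 CPM in vehicle and 28.2, 19.1, 11.0 and 23.3 CPM after LPS. LPS replicate 3 was again the lowest LPS library, but for Jund it lay within the vehicle range, and the other LPS libraries lay above that range. The log2 fold change was 0.76 ± 0.25 with an edgeR adjusted p of 0.0248, and 0.97 ± 0.15 without LPS replicate 3 (edgeR adjusted p = 0.000650). Of the 8 fits that each lacked 1 library, 3 kept the call, and upper quartile normalization ended it (0.62, edgeR adjusted p = 0.0717). In the fits added after the data were seen, the change was 1.80 ± 0.21 (edgeR adjusted p = 5.23e-05) with the GC trend over all 8 libraries removed and 0.70 ± 0.15 (edgeR adjusted p = 0.00271) with the trend within groups removed. Of the exonic bases 52.6% overlap the gene model Gm11175 on the opposite strand, which had 0 counts in every library. The level of Jund per kb is too low if reads in this overlap were not counted.

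The distance of LPS replicate 3 from the other LPS libraries was compared with the GC trend of that library. On the log2 scale that of Junb was -2.62, and -1.52 after the trend had been removed. For Jund the distance was -1.08 before and 0.56 after, and for Jun it was -1.03 and -0.74. Atf3, with 51.2% GC, was 0.98 higher in this library before and 0.92 higher after. After the removal Jund no longer lay below the other LPS libraries, Junb and Jun still did, and Atf3 still lay above them. What else set this library apart was not tested.

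**Figure D2:**
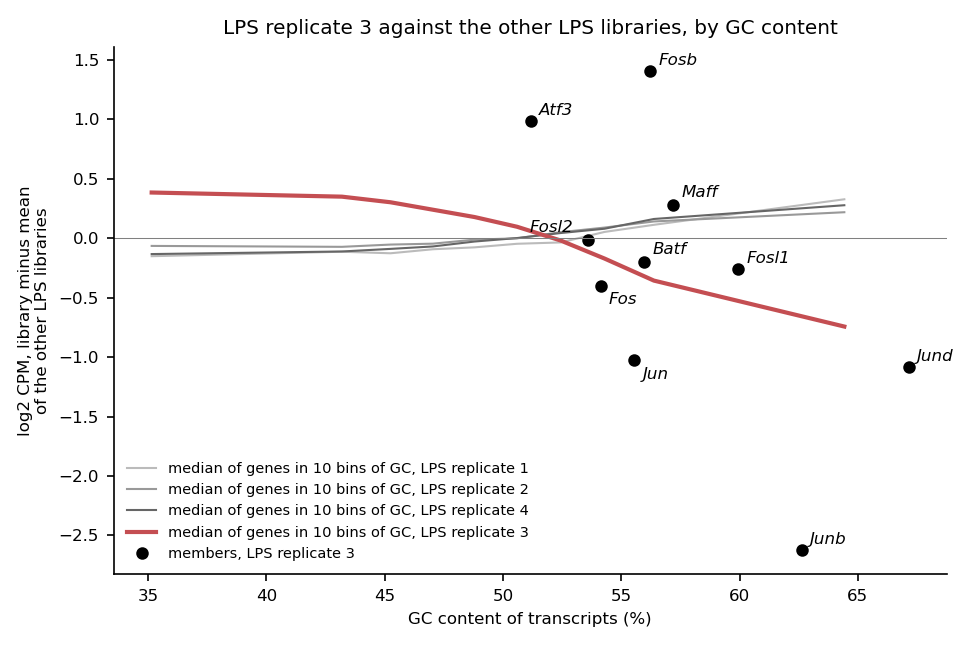
Distance of LPS libraries from the mean of the other LPS libraries (log2 CPM, vertical) against GC content of the transcripts (percent, horizontal). Lines are the medians of genes in 10 bins of GC content, red for LPS replicate 3 and grey for the others, and points are the members in LPS replicate 3. The red line falls from 0.38 to -0.74, and Junb lies far below it, at -2.62. The grey lines rise, but the mean behind each of them includes LPS replicate 3, which by itself tilts them upward.

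Atf3 had the highest level per kb of the members in every library. The gene lies on chr 1 at 191170296 to 191218039 on the minus strand. Its level was 178, 222, 187 and 214 CPM in vehicle and 721, 867, 1618 and 874 CPM after LPS. The groups did not overlap, and LPS replicate 3 was the highest library of all. Atf3 rose 5.09-fold, by 2.35 ± 0.25 on the log2 scale (edgeR adjusted p = 3.26e-05), and it was 2.04 ± 0.12 without LPS replicate 3 (edgeR adjusted p = 3.63e-06). Atf4, a bZIP factor of the integrated stress response that can switch on Atf3, rose from 109–132 CPM to 411–639 CPM with a log2 fold change of 2.24 ± 0.16 (edgeR adjusted p = 2.47e-06).

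Batf (chr 12, 85686669 to 85709087, plus strand) had 4.80, 2.87, 4.19 and 2.24 CPM in vehicle and 34.5, 71.1, 49.0 and 73.1 CPM after LPS. All LPS libraries were above all vehicle libraries, with LPS replicate 1 the lowest of its group. Batf rose 16.1-fold, by 4.01 ± 0.32 on the log2 scale (edgeR adjusted p = 5.02e-06). Its paralogs moved in opposite directions. Batf2 rose from 2.17–5.55 CPM to 40.5–65.8 CPM after LPS (log2 fold change 3.90 ± 0.28, edgeR adjusted p = 2.80e-06). Batf3, a factor known from dendritic cells, was low and fell from 0.770–1.62 CPM to 0.140–0.757 CPM (-1.27 ± 0.48, edgeR adjusted p = 0.0387). Of the IRF partners of BATF, Irf4 fell from 1.47–3.58 CPM to 0.109–0.280 CPM (-3.84 ± 0.43, edgeR adjusted p = 4.10e-05). Irf8 had 170 to 239 CPM in vehicle and 211 to 362 CPM after LPS and did not pass the test (0.43 ± 0.18, edgeR adjusted p = 0.0587).

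Maff (chr 15, 79346621 to 79359076, plus strand) had the smallest standard error of the members. Its level was 2.91, 2.35, 2.28 and 2.41 CPM in vehicle and 40.3, 32.2, 42.9 and 34.2 CPM after LPS, with no overlap. The log2 fold change was 3.91 ± 0.15 (edgeR adjusted p = 1.05e-07). The other small MAF genes rose by less. Mafg went from 92.0–121 CPM to 178–212 CPM (0.89 ± 0.11, edgeR adjusted p = 8.85e-05) and Mafk from 31.1–46.0 CPM to 79.8–114 CPM (1.32 ± 0.16, edgeR adjusted p = 7.94e-05).

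**Figure D3:**
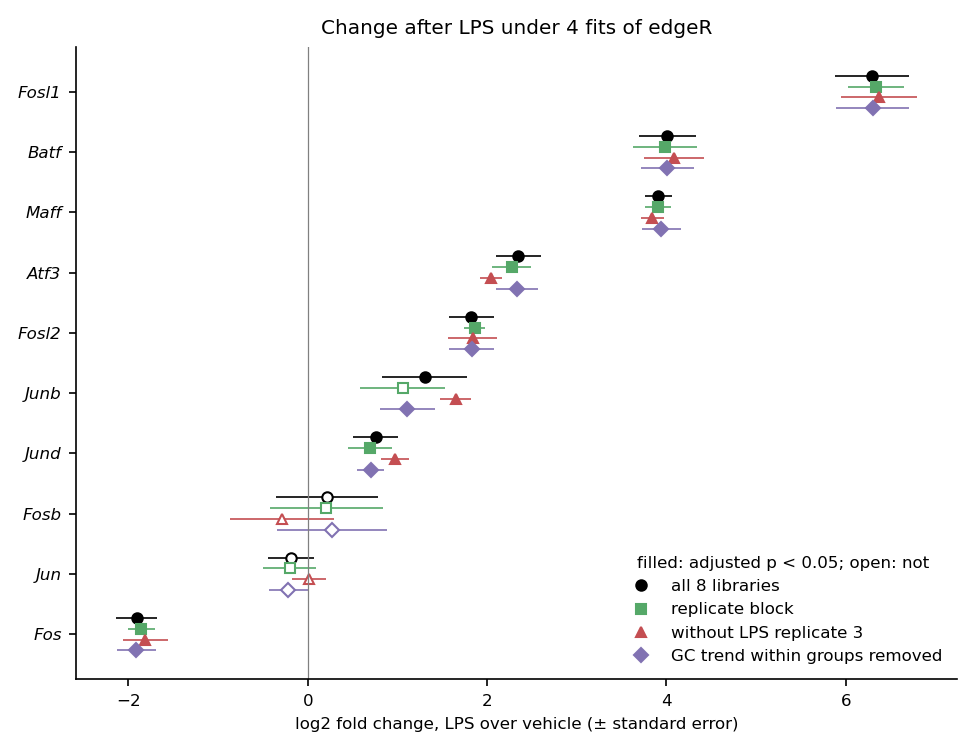
Log2 fold change of each member (LPS over vehicle, ± standard error) in edgeR with all 8 libraries, with a replicate block, without LPS replicate 3 and with the GC trend within groups removed. Filled symbols passed an adjusted p of 0.05 and open symbols did not. The values of Fosl1, Batf, Maff, Fosl2 and Fos hardly moved between the fits. Atf3 went from 2.35 with all 8 libraries to 2.04 without LPS replicate 3 and stayed filled. The replicate block is the fit in which Junb is open, at 1.06.

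Levels of different genes were compared per kb of exonic length, as a description. In vehicle the order of mean CPM per kb was Atf3 (93.0 ± 9.80, SD, n = 4), Fos (53.2 ± 17.5), Junb (47.3 ± 7.84), Jun (30.6 ± 8.11), Jund (7.23 ± 0.885), Fosl2 (6.28 ± 2.34), Batf (2.51 ± 0.835), Maff (0.959 ± 0.109), Fosl1 (0.107 ± 0.0757) and Fosb (0.0735 ± 0.0416). The ranges of the libraries overlapped between Fos and Junb, Junb and Jun, Jund and Fosl2, and Fosl1 and Fosb, so the order of these neighbours is within their spread. Junb was nevertheless above Jun in 4 of 4 vehicle libraries, and the order held in 3 of 4 for each of the other 3 pairs. After LPS the order was Atf3 (473 ± 188), Junb (117 ± 67.4), Batf (40.5 ± 13.2), Jun (26.8 ± 8.27), Fosl2 (22.2 ± 4.96), Maff (14.4 ± 1.94), Fos (14.2 ± 1.83), Jund (12.2 ± 4.39), Fosl1 (8.47 ± 2.48) and Fosb (0.0836 ± 0.0530). Here the libraries stood apart between Atf3 and Junb, between Fosl2 and Maff, and between Fosl1 and Fosb, and overlapped at the other steps. Fos thus moved from rank 2 to rank 7 and Batf from rank 7 to rank 3. With the length of the longest transcript in place of all exons, Junb ranked above Fos, Fosl2 above Jund and Fosb above Fosl1 in vehicle, and Fosl2 above Jun after LPS. Of the exonic bases, 57.2% in Fosl1 and 52.6% in Jund overlap a gene on the opposite strand. If reads in such overlaps went uncounted, which the sources do not settle, the levels and ranks of Fosl1 and Jund are too low.

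**Figure D4:**
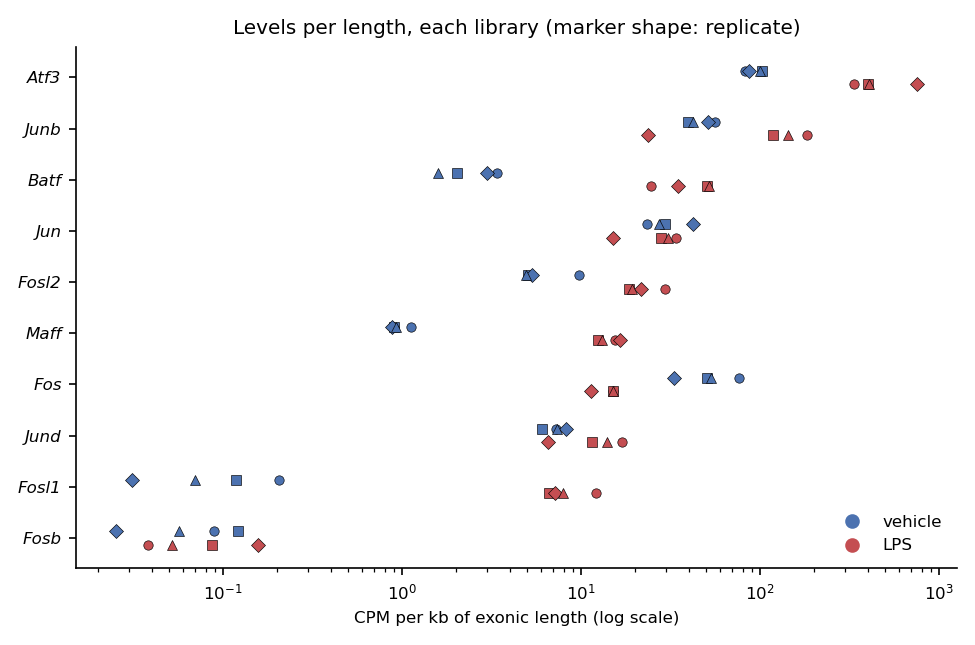
Level of each member per length in each library, in CPM per kb of exonic length on a log axis. Blue symbols are vehicle, red symbols LPS, and the marker shape gives the replicate number. Atf3 leads in every library, Fos moves down from 53.2 to 14.2 on average, and Batf, Maff and Fosl1 move up past it or toward it.

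On the same per-length scale Fos made up 89.0% ± 2.34 (SD, n = 4) of the summed FOS subfamily in vehicle and 32.0% ± 5.27 after LPS. Fosl2 went from 10.7% ± 2.40 to 49.2% ± 4.07 and Fosl1 from 0.164% ± 0.0758 to 18.6% ± 2.09, while Fosb was at most 0.388% in every library. Reads in the overlap with Ccdc85b may not have been counted, so the share of Fosl1 may be too low and the other shares too high. The summed level of the subfamily overlapped, with 38.6 to 85.9 CPM per kb in vehicle and 40.3 to 56.7 after LPS. The sum thus did not separate the groups, whereas the shares of Fos, Fosl2 and Fosl1 did not overlap between them.

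In the JUN subfamily Junb was 50.5% to 64.7% in vehicle and 78.1%, 75.1%, 52.2% and 76.3% in LPS replicates 1 to 4. Jun was 26.9% to 41.4% in vehicle and 14.6%, 17.6%, 33.2% and 16.3% after LPS. Jund was 8.08% to 9.59% in vehicle and 7.26%, 7.26%, 14.5% and 7.46% after LPS. LPS replicate 3 had shares of Junb and Jun within the vehicle range and the highest share of Jund. The share of Jund has the same limit as that of Fosl1, through its overlap with Gm11175.

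Whether 2 genes changed by different amounts was tested on their ratio within each library, by a two-sided exact permutation test over the 70 divisions of the libraries into 4 and 4. The smallest p this design allows is 0.0286, and 8 ratios were computed, with p-values adjusted over them. The log2 ratio of Fos to Fosl2 was 0.91, 1.27, 0.60 and 1.38 in vehicle and -3.00, -2.33, -2.96 and -2.40 after LPS. It was thus above 0 in every vehicle library and below 0 in every LPS library, a difference of -3.71 (exact permutation p = 0.0286, adjusted 0.0457). Fosl1 rose more than Fosl2, with a difference in log2 ratio of 4.57, and Batf moved apart from Batf3 by 5.35. Maff rose more than Mafg, by 3.00, and the ratio of Fosb to Fos rose by 2.08. In each of these 4 ratios the groups did not overlap, with the same exact permutation p of 0.0286, adjusted 0.0457. Some of them rest on few counts. Fosb had 4 to 22 counts per library, Fosl1 2 to 12 in vehicle and Batf3 3 to 14 after LPS. Fosb itself did not pass the edgeR test, so the rise of its ratio to Fos goes with the fall of Fos.

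The remaining ratios did not pass. Jun to Junb differed by -1.20 (exact permutation p = 0.0571, adjusted 0.0762), with LPS replicate 3 within the vehicle range. Jund to Junb differed by -0.30 (exact permutation p = 0.543, adjusted 0.620). Its log2 ratio was -3.89, -3.83 and -3.82 in LPS replicates 1, 2 and 4, below all vehicle libraries at -3.41 to -2.98, and -2.31 in LPS replicate 3, above them. Without LPS replicate 3 the difference was -0.68 for Jund to Junb and -1.60 for Jun to Junb, each with an adjusted exact permutation p of 0.0653, in a design whose smallest p is 0.0571 before adjustment. Atf3 to Atf4 differed by 0.06 (exact permutation p = 0.914, adjusted 0.914), with log2 ratios of 0.65 to 0.82 in vehicle and 0.54 to 1.34 after LPS, the highest in LPS replicate 3. A p above the threshold does not show that these pairs changed alike.

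For the 2 members with the largest called rises, Fosl1 and Batf, and for Fos, the only member called lower, the tested genes with the most similar levels over the 8 libraries were sought. Likeness was the root mean square distance of log2 CPM centred on the vehicle mean, over 13846 genes. Nearest to Fosl1 were Lta, which encodes lymphotoxin alpha (distance 0.459), Ism1 (0.468) and Adm2 (0.522). Nearest to Batf were the unnamed gene model Gm44876 (0.265), Gstt1, a glutathione transferase gene (0.289), and Il4ra, which encodes the interleukin 4 receptor alpha chain (0.350). Nearest to Fos were Asap2 (0.183), Acvr2b, an activin receptor gene (0.215), and Rasal2 (0.225).

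Of 42 other bZIP genes, 36 were tested, of which 20 rose, 9 fell and 7 did not pass, with a median log2 fold change of 0.55. As shares, 55.6% rose and 25.0% fell, beside 30.3% and 33.8% of all tested genes. Beside Batf2 the largest rises were those of Ddit3, the stress factor CHOP (3.10 ± 0.31, edgeR adjusted p = 2.26e-05), Creb5 (2.78 ± 0.33, edgeR adjusted p = 5.93e-05) and Atf4. Ddit3 had 10.2 to 25.1 CPM in vehicle and 89.8 to 182 CPM after LPS. Among the largest falls were those of Cebpa, a factor of myeloid differentiation, from 175–196 CPM to 7.23–10.1 CPM (-4.38 ± 0.14, edgeR adjusted p = 4.25e-08), Bach2 (-1.99 ± 0.27, edgeR adjusted p = 0.000133) and Tef (-1.42 ± 0.17, edgeR adjusted p = 7.10e-05). Jdp2, which encodes a repressive partner of JUN, rose from 8.09–13.3 CPM to 25.2–40.6 CPM (1.83 ± 0.21, edgeR adjusted p = 4.78e-05). Without LPS replicate 3 the list had 22 higher and 9 lower.

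**Figure D5:**
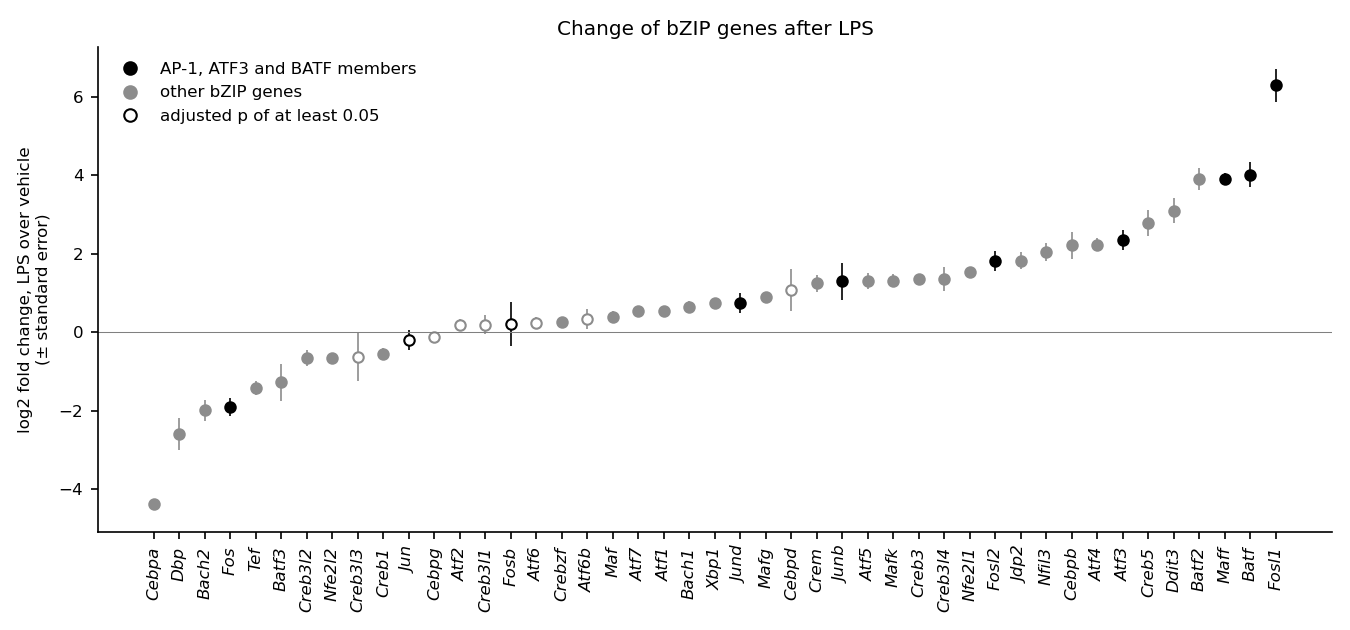
Log2 fold change (LPS over vehicle, ± standard error) of the 10 members, in black, and of 35 other tested bZIP genes, in grey, in order of size. Open symbols did not pass an adjusted p of 0.05. Fosl1, Batf and Maff are the 3 highest of these genes, with Batf2 next, and Cebpa is the lowest at -4.38.

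The list of genes for partners of BATF and the small MAF proteins had 10 genes, of which 8 are also in the bZIP list. Of 8 tested, 4 rose, 3 fell and 1 did not pass. As shares, 50.0% rose and 37.5% fell, beside 30.3% and 33.8% of all tested genes. Nfe2l1, a partner of the small MAF proteins that is known for proteasome genes, rose from 189–219 CPM to 482–646 CPM (1.55 ± 0.13, edgeR adjusted p = 6.28e-06). Nfe2l2, which encodes the oxidative stress factor NRF2, fell from 319–407 CPM to 205–260 CPM (-0.65 ± 0.12, edgeR adjusted p = 0.00123). Bach1, a repressor that pairs with small MAF proteins, rose (0.64 ± 0.15, edgeR adjusted p = 0.00350).

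Among 31 genes of the MAP kinase cascade and of serum response factors, which act upstream of Fos and Jun, 29 were tested, of which 10 rose, 8 fell and 11 did not pass. The median log2 fold change was 0.23. As shares, 34.5% rose and 27.6% fell, near the 30.3% and 33.8% of all tested genes. Map3k8, the kinase TPL2 that links TLR4 to ERK, rose from 25.3–32.3 CPM to 131–165 CPM (2.40 ± 0.12, edgeR adjusted p = 3.95e-07). Map2k1, which encodes the ERK kinase MEK1, rose from 141–163 CPM to 581–702 CPM (2.07 ± 0.12, edgeR adjusted p = 7.11e-07), and Mapkapk2, a p38 substrate kinase, rose by 1.56 ± 0.13 (edgeR adjusted p = 7.62e-06). The largest falls were those of Rps6ka5, which encodes the kinase MSK1 (-1.97 ± 0.12, edgeR adjusted p = 8.90e-07), Map3k5, which encodes ASK1 (-1.16 ± 0.24, edgeR adjusted p = 0.00197), and Map2k5 (-0.77 ± 0.10, edgeR adjusted p = 0.000111).

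Of the JNK genes, Mapk8 rose (0.66 ± 0.15, edgeR adjusted p = 0.00412) and Mapk9 did not pass (-0.06 ± 0.13, edgeR adjusted p = 0.704). Srf and Elk1, whose products act on the Fos promoter, did not pass either, with 0.24 ± 0.17 (edgeR adjusted p = 0.247) and 0.14 ± 0.16 (edgeR adjusted p = 0.455). Srf had 41.9, 43.2, 25.1 and 43.3 CPM in LPS replicates 1 to 4 and 29.5 to 36.1 CPM in vehicle. Without LPS replicate 3 the whole list had 14 higher and 10 lower.

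Of 28 other immediate early genes, 26 were tested, of which 14 rose, 5 fell and 7 did not pass, with a median of 1.06. As shares, 53.8% rose and 19.2% fell, beside 30.3% and 33.8% of all tested genes. The largest rises were those of Dusp2 (6.67 ± 0.44, edgeR adjusted p = 1.73e-06), Ier3 (5.18 ± 0.38, edgeR adjusted p = 3.04e-06) and Dusp1 (4.90 ± 0.29, edgeR adjusted p = 9.47e-07). Dusp1 and Dusp2 encode phosphatases that switch off MAP kinases, and Dusp1 went from 22.6–30.7 CPM to 412–991 CPM. The largest falls were those of Egr2 (-1.84 ± 0.33, edgeR adjusted p = 0.000793), Nr4a1 (-1.40 ± 0.36, edgeR adjusted p = 0.00725) and Klf2 (-1.23 ± 0.26, edgeR adjusted p = 0.00225).

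Of 20 genes that are textbook cases of AP-1 sites in their promoters, all were tested. Of these, 14 rose, 2 fell and 4 did not pass, with a median of 2.68. Among all tested genes 30.3% rose and 33.8% fell. The list was chosen with earlier results of these data known, and how far that choice raised the number of rises was not tested. Mmp13, a collagenase gene, went from 8.84–27.8 CPM to 18227–29046 CPM (10.38 ± 0.47, edgeR adjusted p = 2.48e-07). Ptgs2, which encodes cyclooxygenase 2, went from 3.73–12.5 CPM to 9737–12984 CPM (10.73 ± 0.53, edgeR adjusted p = 3.61e-07). Il6 had 12, 0, 2 and 0 counts in vehicle and 294 to 776 CPM after LPS, and was called higher (edgeR adjusted p = 1.50e-06). Plau, which encodes the protease urokinase, fell from 195–295 CPM to 12.4–26.5 CPM (-3.84 ± 0.26, edgeR adjusted p = 1.91e-06), and Ccnd1, which encodes cyclin D1, from 121–298 CPM to 25.7–44.7 CPM (-2.94 ± 0.31, edgeR adjusted p = 2.93e-05). These genes have sites for many other factors, and what AP-1 contributes to them was not tested.

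Of 9 genes for turnover or repression of AP-1 proteins, 3 rose, none fell and 6 did not pass in edgeR, with a median of 0.18. The 33.3% that rose is near the 30.3% of all tested genes, of which 33.8% fell. DESeq2 also called 0 lower, and 3 were lower at an unadjusted edgeR p under 0.05. Nr3c1, which encodes the glucocorticoid receptor, a protein that can repress AP-1, rose from 167–204 CPM to 488–642 CPM (1.50 ± 0.13, edgeR adjusted p = 8.75e-06). Trib1, an adaptor of the ubiquitin ligase COP1, rose by 0.66 ± 0.12 (edgeR adjusted p = 0.000752), and Gsk3b, a kinase that phosphorylates c-JUN, by 0.47 ± 0.11 (edgeR adjusted p = 0.00523). Without LPS replicate 3, 2 genes of this list were called lower.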

How the data were processed

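RNA of primary mouse microglia was sequenced as single-end reads of 50 bases. The authors filtered, aligned and counted the reads with HTSeqGenie, using GSNAP alignment to GRCm38 and uniquely aligned reads, and deposited raw counts per gene without normalization. The annotation release and the use of strand are not given in the sources used here. The labels name a stranded kit, the methods a TruSeq v2 kit. Symbols and positions came from GENCODE vM21 (52489 of 52636 identifiers matched) and promoter windows from RefSeq.

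Counts were tested with edgeR 4.0.16 in R 4.3.3 (quasi-likelihood test, two-sided, without a block, after TMM scaling and filterByExpr at its default minimums of 10 counts and 15 in total). Ratios used log2 CPM with 0.5 counts added. DESeq2 1.42.0 was an alternative, beside upper quartile normalization, DESeq2 size factors, no filter, at least 10 counts in every library, a replicate block, an adjusted p of 0.01, a log2 change of at least 1, and leaving out each library. A robust dispersion fit and the GC fits (lowess, span 0.3) were added after seeing the data. Python 3.11.15 with scipy 1.17.1 gave the permutation tests. The fits were also run on simulated counts with few changed genes, a common dispersion and no GC trend. That setting differs from these data and does not test the normalization or the GC fits under their conditions. The SD covers the spread between the 4 libraries of a group.

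Same-numbered vehicle and LPS libraries deviated together from their group means across 8382 genes, with r of 0.352, 0.165, 0.179 and 0.140, all over 0.1, so the numbers were treated as pairs in the blocked fit. Exchanged libraries of replicates 2 and 4 correlated about as well (vehicle 2 with LPS 4, r = 0.146, and vehicle 4 with LPS 2, r = 0.151), so the pairing of these replicates is not settled, and the labels do not say what the numbers share. Named genes are the members, a few relatives named whatever their change, and the 3 largest rises and falls of each list (4 for bZIP genes) among genes that passed and averaged 1 or more in log2 CPM. A bZIP gene that enters the counts of its list is not reported here. The members and lists were chosen with earlier results of these data known.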

Additional observations from a re-analysis of the deposited data

Results flagged for a closer look

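The libraries of a group were compared with each other for 50 named genes, in 100 groups of 4. In 11 groups the gap between the highest or lowest library and its nearest neighbour was so large a part of the whole range that it passed the 95% limit of Dixon's test, which chance passes in about 1 of 20 groups. Of these libraries 5 were vehicle replicate 1, 4 were LPS replicate 3 and 2 were LPS replicate 1.

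Among the members, Fos had 26.9 CPM in LPS replicate 3 against 35.4 to 35.6 CPM in the other LPS libraries, and Fosl2 had 94.7 CPM in vehicle replicate 1 against 48.0 to 51.4 CPM. LPS replicate 3 was also far from its group for Srf, with 25.1 CPM against 41.9 to 43.3 CPM, for Nr4a1, with 1.91 CPM against 3.43 to 3.59 CPM, and for Creb5, with 192 CPM against 101 to 105 CPM. Vehicle replicate 1 was high for Tef (44.2 CPM against 30.5 to 32.4 CPM), Egr2 (11.4 CPM against 4.94 to 5.93 CPM) and Il6 (0.420 CPM against 0 to 0.0634 CPM). It was low for Ccnd1, with 121 CPM against 281 to 298 CPM. LPS replicate 1 was low for Ddit3, with 89.8 CPM against 175 to 182 CPM, and high for Ier3, with 706 CPM against 365 to 412 CPM.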

How the results depend on the processing

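Fos, Fosl2, Atf3, Batf and Maff kept their direction and call under all 20 alternatives, and Fosl1 under the 19 in which it was tested. The count of members called higher was 5 to 7 and that of members called lower was 1 throughout. Besides Junb, the replicate block ended no call among the members. The call of Junb was lost in 10 alternatives and that of Jund in 8. Fosb changed by -0.29 to 0.58 and Jun by -0.32 to 0.079 when single libraries were left out, reversing without replicate 3 of either group, and Jun changed by 0.032 when the GC trend over all libraries was removed. Upper quartile normalization moved the median log2 fold change of all genes from -0.11 to -0.27.

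With a minimum log2 change of 1 the other bZIP list had 13 higher, the MAP kinase list 5 higher and 2 lower, the partner list 2 higher and the turnover list 1 higher. At an adjusted p of 0.01, 3 other immediate early genes were lower, and 3 to 6 when single libraries were left out, with 3 without vehicle replicate 4. In the turnover list 2 genes were lower with at least 10 counts in every library, 1 without a filter, 1 with the replicate block, 2 with upper quartile normalization and 0 to 2 when single libraries were left out (2 without LPS replicate 3, 1 without LPS replicate 1 or vehicle replicate 3).

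For the ratios the block, by exact sign flips of the 4 pairs, allows no p under 0.125, and leaving out a library none under 0.0571, so no ratio could pass (blocked values -3.71 for Fos/Fosl2, 4.57 for Fosl1/Fosl2, 2.08 for Fosb/Fos, 5.35 for Batf/Batf3 and 3.00 for Maff/Mafg). Leaving out single libraries gave -3.86 to -3.60, 4.19 to 4.79, 1.63 to 2.39, 4.95 to 5.66 and 2.88 to 3.09 in the same order, -1.60 to -1.01 for Jun/Junb, -0.68 to -0.15 for Jund/Junb, and -0.11 to 0.15 for Atf3/Atf4, reversed without LPS replicate 3. Jun/Junb passed with the GC trend removed (-1.20, exact permutation, adjusted p = 0.0381). The cause of these shifts was not tested. The longest transcript as length moved the level per kb of Batf, Fosb, Fosl2 and Maff by more than the SD in both groups.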

Other observations

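Some of the genes lie close together in the genome and changed in opposite directions, a point noticed after their values were seen. Calls in both directions were common, with 30.3% of all tested genes higher and 33.8% lower. On chr 12 Fos ends 209396 bases before the start of Batf, with Jdp2 between them. Fos fell after LPS (-1.91) while Jdp2 (1.83) and Batf (4.01) rose, all by the same edgeR test. On chr 1 Batf3 lies at 191097847 to 191108945 and Atf3 at 191170296 to 191218039 on the other strand. Atf3 rose by 2.35 while Batf3 had a log2 fold change of -1.27.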
